A study of Mus musculus with 85 samples.

Results

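The genes described here carry methyl groups through the hippocampus: the methionine cycle with its recycling enzymes, the folate enzymes that feed it, the glycine cleavage system, the methyl-using and choline branch, and the synthesis of polyamines with the salvage route that returns their by-product to methionine. They were chosen as a list of 36 gene symbols, and every row of the deposited table that names one of them was taken, which gave 39 rows for 36 genes out of 53891 genes and loci in all. RNA came from the hippocampus of 85 mice of the same age, 8 months, with 1 library per mouse. Mice of the strain APPswePSEN1dE9 (AD mice here) were compared with C57BL/6J control mice, a methionine-restricted feed with a standard feed, and females with males. The 8 groups are female AD mice on restricted feed (FADMR, n = 11), female control mice on restricted feed (FWTMR, n = 10), female AD mice on standard feed (FAD, n = 11), female control mice on standard feed (FWT, n = 10), and the male groups MADMR (n = 11), MWTMR (n = 10), MAD (n = 11) and MWT (n = 11), named the same way. The AD line is known to carry a mutated APP and a mutated presenilin gene behind the prion protein promoter, so that genotype here means this 1 line. The labels give no litter, cage, batch or sequencing date.

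As background, methionine is activated to S-adenosylmethionine, the methyl donor of the cell, and each methyl transfer leaves S-adenosylhomocysteine, which is split to homocysteine and remethylated with a methyl group from folate. Folate takes its carbon units from serine and glycine, and the glycine cleavage system of mitochondria is, in the brain, best known from astrocytes. Decarboxylated S-adenosylmethionine gives its aminopropyl group to putrescine and to spermidine, which makes spermidine and spermine, and the methylthioadenosine left over is turned back into methionine by the salvage enzymes.

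The labels held up against genes known in advance. The Prnp locus lay at 917, 1202 and 1508 FPKM (lowest, median and highest) in AD mice, against 241, 338 and 435 FPKM in control mice, with no overlap, and App at 2011, 3419 and 5054 FPKM in AD mice, against 2075, 2796 and 3923 FPKM in control mice. Xist ran from 23.2 to 198 FPKM in females and from 0.109 to 0.864 FPKM in males, and the Ddx3y locus reached at most 1.38 FPKM in females and was at least 194 FPKM in males. All 10 hippocampal marker genes had a mean of at least 1 FPKM, the lowest being Spink8 at 7.99 FPKM. Values are FPKM as deposited, fragment numbers adjusted for the length of the transcript and the size of the library, divided here by a scaling factor per library. They are per length, so levels can be set beside each other between genes, but the read depth behind them is unknown. Levels are less certain for the 9 of the 36 genes on rows joined with other genes and the 3 on 2 rows. Libraries from females had 18509 to 20441 rows that reached 1 FPKM (median 19475.5), and those from males had 17973 to 19880 (median 18780).

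The highest of the 36 genes was Ahcyl2, a relative of the S-adenosylhomocysteine hydrolase, with a mean of 375 ± 84.8 FPKM over all mice (SD, n = 85). Its relative Ahcyl1, also called IRBIT and known for binding the inositol trisphosphate receptor, averaged 267 ± 42.6 FPKM, and the hydrolase itself, Ahcy, 5.91 ± 0.634 FPKM. Mat2b, the regulatory subunit of methionine adenosyltransferase, averaged 176 ± 26.7 FPKM, while its catalytic subunit Mat2a averaged 8.64 ± 6.12 FPKM. In these values the catalytic genes Ahcy and Mat2a, the latter summed over 2 rows, lay well below the genes of their relatives and partner. Methionine synthase, Mtr, which remethylates homocysteine with vitamin B12, averaged 9.39 ± 1.88 FPKM on a row joined with Gm10336, and its reductase Mtrr 3.28 ± 1.38 FPKM.

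Among the salvage genes, the Mri1 locus was highest, at 269 ± 29.01 FPKM, on a row joined with D8Ertd738e, so that the reads of the neighbour are part of the value. Enoph1 averaged 103 ± 14.4 FPKM, Apip 71.01 ± 17.9 FPKM and the Adi1 locus, joined with Tssc1, 15.3 ± 1.95 FPKM. Mtap, which opens the salvage route by splitting methylthioadenosine, was the lowest of the 5 salvage genes at 6.73 ± 1.07 FPKM. Of the 4 polyamine genes, Sms, which makes spermine, averaged 75.9 ± 30.2 FPKM. Amd1, which decarboxylates S-adenosylmethionine, averaged 22.2 ± 2.91 FPKM, Srm, which makes spermidine, 16.3 ± 7.69 FPKM and Odc1, which makes putrescine, 12.9 ± 2.58 FPKM.

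In the glycine cleavage system, Gldc, the decarboxylase, averaged 44.9 ± 11.5 FPKM, Amt, the aminomethyltransferase, 22.1 ± 3.91 FPKM and Gcsh, the carrier of the lipoyl group, 3.79 ± 0.406 FPKM. Of the folate enzymes 3 had means above 10 FPKM and 3 below 1 FPKM. Mthfd2l, Shmt2 and the Aldh1l1 locus (joined with Klf15) averaged 18.1 ± 4.04, 12.96 ± 1.64 and 12.7 ± 1.72 FPKM, and the mitochondrial serine hydroxymethyltransferase Shmt2 stood above its cytosolic form Shmt1, at 0.381 ± 0.115 FPKM. Group medians of Shmt1 in FPKM were 0.339 in FADMR, 0.457 in FWTMR, 0.348 in FAD, 0.376 in FWT, 0.350 in MADMR, 0.412 in MWTMR, 0.315 in MAD and 0.363 in MWT. The Fpgs locus, Mthfd2, Aldh1l2, the Mthfd1 locus and Mthfd1l had means from 5.08 to 7.80 FPKM, and the Mthfs locus averaged 0.978 ± 0.173 FPKM. Fpgs attaches glutamate to folate so that it stays in the cell, the Mthfd enzymes and Mthfs interconvert folates, and the Aldh1l enzymes oxidise formyl folate.

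The methyl-using and choline branch was mostly near 0. Its Gnmt locus, at 136 ± 21.2 FPKM, is a row joined with Cnpy3, and the share of the glycine methyltransferase gene Gnmt, known from liver, in that value cannot be told apart from that of Cnpy3. Choline dehydrogenase, Chdh, averaged 5.73 ± 2.63 FPKM. Nnmt, Pemt (joined with Gm38498), Bhmt2 and Bhmt, which in liver methylate nicotinamide, phosphatidylethanolamine and, for the Bhmt pair, homocysteine, averaged 0.628 ± 0.283, 0.182 ± 0.0410, 0.0488 ± 0.0187 and 0.0166 ± 0.0208 FPKM. Bhmt was listed at 0 in 18 of 85 libraries. Neighbours in the order of means often lay within their spread: Mri1 was above Ahcyl1 in 46 of 85 mice, Amd1 above Amt in 43, Shmt2 above Odc1 in 47, Ahcy above Chdh in 48 and Gcsh above Mtrr in 41, while Ahcyl1 was above Mat2b in 85 and the Aldh1l1 locus above Mtr in 82.

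**Figure D1:**
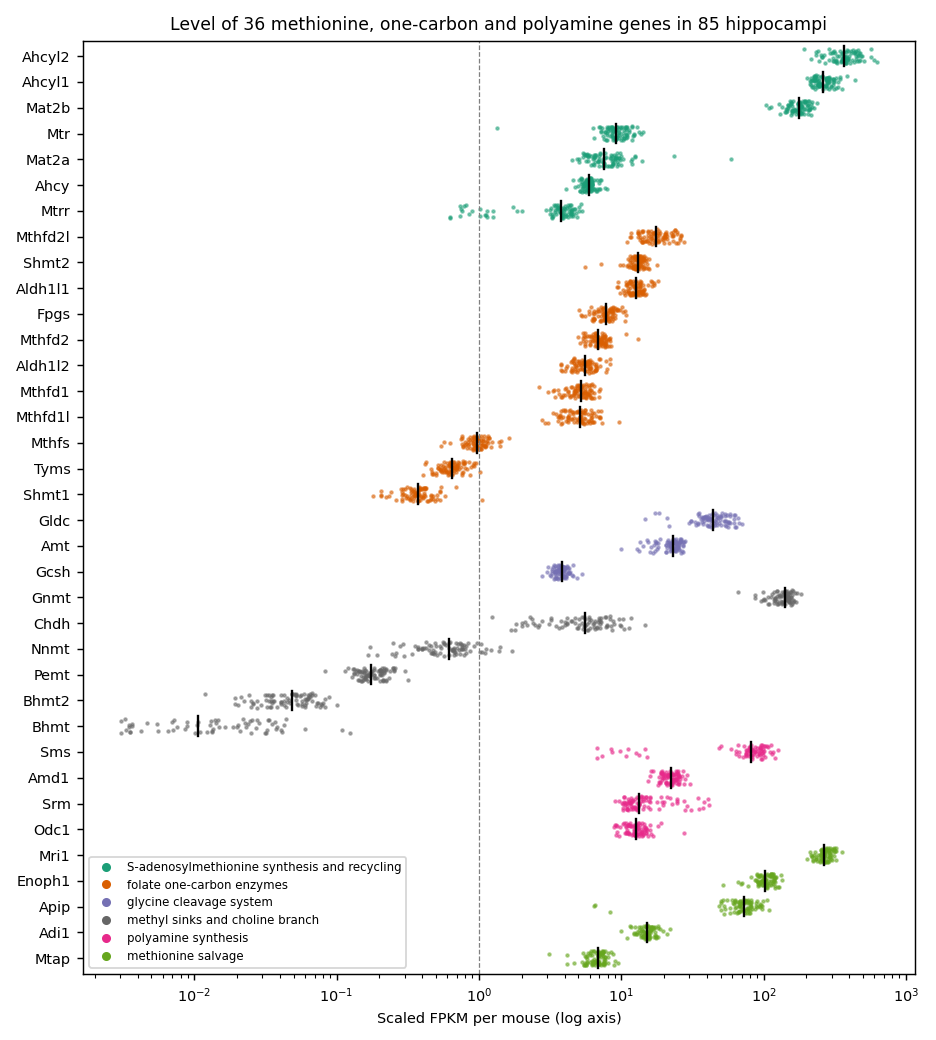
Level of each of the 36 genes in each of 85 mice, as scaled FPKM on a log axis, by pathway branch in colour, with black bars at the medians and a dashed line at 1 FPKM; values at 0 are not drawn. Ahcyl2, the Mri1 locus, Ahcyl1 and Mat2b lie above 100 FPKM in all mice, 6 genes have their mean below the Mthfs locus at 0.978 FPKM, and Sms, Mtrr and Apip show a separate group of low mice.

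A gene was tested where at least 10 libraries reached 1 FPKM. That left 30 of the 36 genes, and Shmt1, Tyms (thymidylate synthase, 0.654 ± 0.127 FPKM), Nnmt, Pemt, Bhmt and Bhmt2 were not tested. Of the 30, 8 are joined loci, and Mat2a, Srm and Apip are each summed over 2 rows. Differences below are on the log2(FPKM + 1) scale with their standard error, which understates the change of low genes, and they come from limma with Benjamini-Hochberg adjustment over all 21297 genes and loci tested. Of the 21297, 12562 are single genes, 1402 are joined loci and 7333 are loci without a gene symbol. Shares of all genes below are over the whole 21297 unless another set is named. In bulk tissue, fewer cells of a type and less RNA per cell cannot be told apart.

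The promoters of Amd1, Ahcy and Ahcyl1 are shown because Amd1 correlated with the other two among mice of the same group, as described further on. Mat2b, whose correlation with Amd1 was higher, is not shown, since 92 bases of its window lie in an annotated exon (GENCODE vM21). Each is the stretch of 250 bases before the gene's start in RefSeq (GRCm38.p6), all 3 on the minus strand: chr10:40302189-40302438 for Amd1, chr2:155074498-155074747 for Ahcy and chr3:107696561-107696810 for Ahcyl1. Capitals mark matches on either strand to 5 motifs, none of which overlaps another here, GGGCGG (GC box), CCAAT, TGACGTCA (cAMP response element), CACGTG (E-box) and TGATGNAAT (CARE).
Amd1: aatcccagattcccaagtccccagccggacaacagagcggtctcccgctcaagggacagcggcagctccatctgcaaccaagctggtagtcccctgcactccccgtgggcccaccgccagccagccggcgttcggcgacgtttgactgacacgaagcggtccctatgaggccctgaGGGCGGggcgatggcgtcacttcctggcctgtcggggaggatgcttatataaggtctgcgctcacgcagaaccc
Ahcy: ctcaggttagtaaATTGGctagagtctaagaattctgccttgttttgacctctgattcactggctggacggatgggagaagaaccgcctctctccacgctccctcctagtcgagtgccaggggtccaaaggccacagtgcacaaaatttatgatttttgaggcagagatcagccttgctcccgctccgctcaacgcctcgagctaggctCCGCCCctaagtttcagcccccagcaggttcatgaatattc
Ahcyl1: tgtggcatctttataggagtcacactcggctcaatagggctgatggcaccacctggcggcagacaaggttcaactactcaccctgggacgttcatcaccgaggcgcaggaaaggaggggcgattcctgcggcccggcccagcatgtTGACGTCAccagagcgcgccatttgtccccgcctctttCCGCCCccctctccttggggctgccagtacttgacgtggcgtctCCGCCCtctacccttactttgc
The Amd1 stretch holds 1 GC box. That of Ahcy holds 1 GC box and 1 CCAAT match, both on the other strand, and that of Ahcyl1 holds 2 GC boxes on the other strand and 1 full cAMP response element. RefSeq windows were given for 32 of the 36 genes, 42 windows in all, with none for Adi1, Aldh1l2, Nnmt and Srm. The GC box was in 66.7% of these 42 windows and in 32.7% of all 32851 windows of that length, CCAAT in 21 of the 42 and 33.8% of all windows, and the cAMP response element, in Ahcyl1 alone, in 2.38% against 1.55%. E-boxes were in the windows of Sms and Tyms (4.76% against 6.02%), and the CARE motif, known as the target of ATF4 in the amino acid response, in 0 of the 42 and 0.816% of all windows. At so low a share 0 of 42 says little, and bases outside these windows were not searched.

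Between AD and control mice none of the 30 genes passed the threshold. Averaged over sex and feed, 1.74% of all genes were called (370 of 21297), and 0 of 30 of these genes were. At an unadjusted p under 0.05 there were 3 of 30 (10.0%), against 13.6% of all genes, and their median difference was -0.01, beside -0.01 over all genes. A robust regression, which gives outlying mice less weight, called 1 of them, Mtrr, beside 5.8% of all genes, and a fit with array weights, which gives noisier libraries less weight, called 1, Aldh1l2, beside 5.44% of all genes. Both are shares of 3.33%, under those of all genes. For 28 of the 30 genes the 95% interval lay within 0.5 log2 units on either side of 0, and the exceptions were Mtrr and Sms.

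Aldh1l2, the mitochondrial formyl folate dehydrogenase, had the smallest adjusted p. Its lowest, median and highest values were 3.84, 5.91 and 8.31 FPKM in AD mice, against 3.75, 5.19 and 7.87 FPKM in control mice. The ranges overlapped almost wholly, with 33 of 44 AD mice above the control median and a difference of 0.13 ± 0.044 (adjusted p = 0.108). Its group medians in FPKM were 5.50 in FADMR, 4.98 in FWTMR, 5.97 in FAD, 5.35 in FWT, 6.60 in MADMR, 5.57 in MWTMR, 5.40 in MAD and 4.92 in MWT, so the AD group was higher in each of the 4 pairs. By pair the difference was 0.12 ± 0.089 for FADMR against FWTMR, 0.08 ± 0.089 for FAD against FWT, 0.25 ± 0.089 for MADMR against MWTMR and 0.08 ± 0.086 for MAD against MWT. None of these passed (adjusted p of 0.358 or more), and without MWT replicate 1 the average came to 0.15 with an adjusted p of 0.0447.

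Mtrr, the reductase that keeps methionine synthase active, had the next smallest p. Its values were 0.624, 3.49 and 5.20 FPKM in AD mice, against 0.757, 3.97 and 5.31 FPKM in control mice. The ranges overlap, and the difference was -0.37 ± 0.12 (adjusted p = 0.109), with 33 of 44 AD mice below the control median. With robust regression it was -0.27 (adjusted p = 0.0240). The values fell into bands, 21 mice between 0.624 and 2.01 FPKM and the other 64 between 2.98 and 5.31 FPKM. Of the low mice 16 were among 44 AD mice and 5 among 41 control mice. By group they numbered 4 in FADMR, 2 in FWTMR, 3 in FAD, 0 in FWT, 5 in MADMR, 2 in MWTMR, 4 in MAD and 1 in MWT. The bands here and below were drawn at the widest gap after the values were seen, so they carry no test. Mthfd2, the mitochondrial methylene folate dehydrogenase, was the third with an unadjusted p under 0.05, at 0.09 ± 0.042 (adjusted p = 0.303), with 4.93, 7.16 and 13.1 FPKM in AD mice, against 5.36, 6.80 and 8.32 FPKM in control mice, which overlap. Of 8 microglia markers 5 were higher in AD mice and 0 lower, with sums of 71.7 to 301 FPKM in AD mice, against 49.8 to 102 FPKM in control mice, and 1 of 10 astrocyte markers was higher. So was 1 of 9 tested striatum markers. In all, 7 of 80 tested markers of 9 cell types and regions were called (8.75%), beside 1.74% of all genes. Their part in the values of these genes was not tested.

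**Figure D2:**
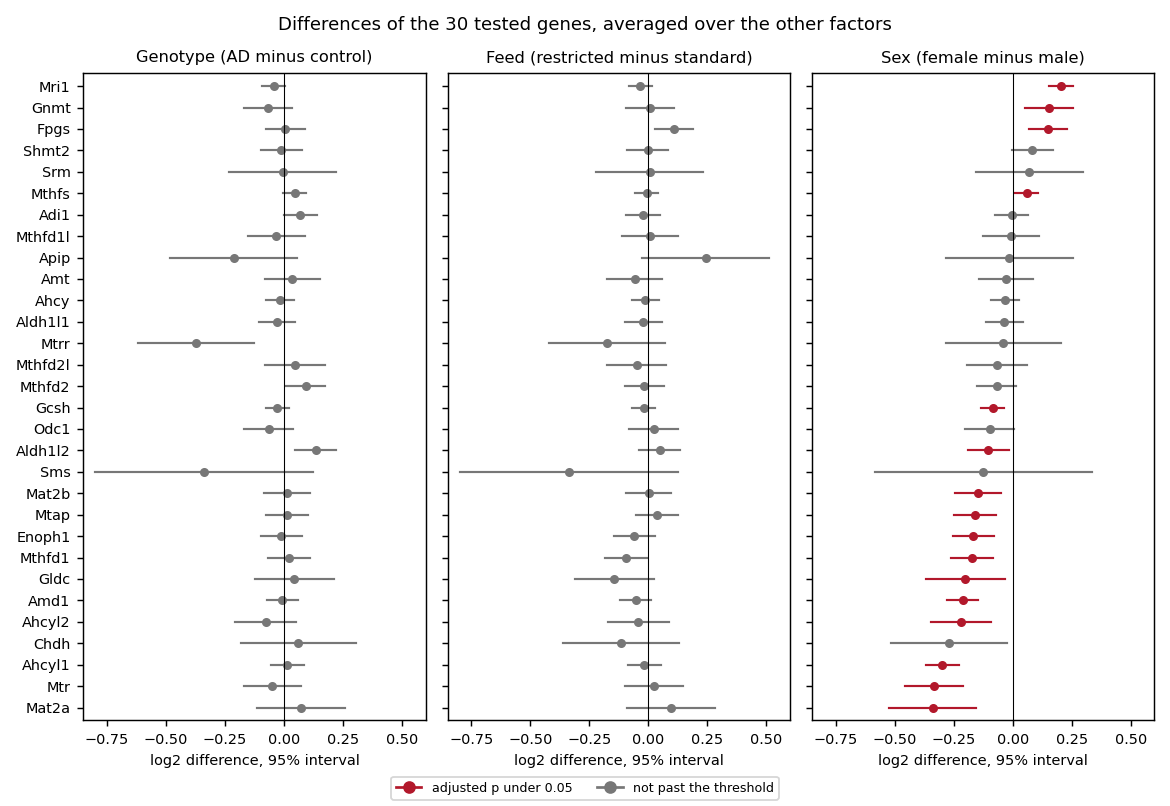
Log2 difference of each of the 30 tested genes with its 95% interval for AD minus control (left), restricted minus standard feed (middle) and female minus male mice (right), each averaged over the other factors; red marks an adjusted p under 0.05. No gene is red for genotype or feed and 16 are for sex, 12 of them to the left of 0; Mtrr, Sms and Apip have wide intervals.

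Within single pairs of groups 0 of 30 were called for genotype in females on restricted feed (1.38% of all genes), females on standard feed (0.517%), males on restricted feed (0.113%) and males on standard feed (0.061%). At an unadjusted p under 0.05 there were 3 of 30 in females on restricted feed (14.6% of all genes), 1 in females on standard feed (11.9%), 4 in males on restricted feed (10.3%) and 3 in males on standard feed (7.28%). With single libraries left out the counts over all genes ran from 189 to 420 in females on restricted feed, 63 to 604 in females on standard feed, 11 to 32 in males on restricted feed and 9 to 34 in males on standard feed, with 604 reached without FAD replicate 5 and 34 without MWT replicate 1. In males on restricted feed 27 of 30 differences were below 0, with a median of -0.10, beside -0.01 over all genes. This count by direction carries no test, since the 30 genes were measured in the same mice. Robust regression called Adi1 and Mthfs in females on restricted feed (3.75% of all genes), array weights called Mthfd2 in females on standard feed (6.3% of all genes), and neither called any other of the 30. In the other pairs robust regression called 4.55% of all genes in females on standard feed, 1.77% in males on restricted feed and 0.817% in males on standard feed. Array weights called 1.7% of all genes in females on restricted feed, 3.29% in males on restricted feed and 0.188% in males on standard feed. The smallest adjusted p was that of the Adi1 locus in females on restricted feed, where the values were 13.8, 16.2 and 21.9 FPKM in FADMR, against 11.02, 14.5 and 16.99 FPKM in FWTMR, a difference of 0.24 ± 0.071 (adjusted p = 0.0731). Adi1 makes the last intermediate of methionine salvage, and its locus also holds Tssc1. In the other pairs it was 0.06 ± 0.071 for FAD against FWT, -0.05 ± 0.071 for MADMR against MWTMR and 0.03 ± 0.070 for MAD against MWT. It passed with marker means of choroid plexus, meninges, striatum and thalamus as covariates (0.25, adjusted p = 0.0461), called tissue covariates below. That fit called 0.991% of all genes in this pair. The Adi1 locus also passed without any of FADMR replicate 3 (adjusted p = 0.0431), FADMR replicate 11 (0.0400), FWTMR replicate 10 (0.0409) or MADMR replicate 3 (0.0470). The Mthfs locus, which includes Bcl2a1a, was at 0.14 ± 0.049 (adjusted p = 0.126) in the same pair and passed without FWTMR replicate 2 (adjusted p = 0.0343).

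Between restricted and standard feed none of the 30 genes passed the threshold. Averaged over sex and genotype 0 of 30 genes were called, beside 0.141% of all genes (30 of 21297). At an unadjusted p under 0.05 there were 2 of 30 (6.67%) against 7.53% of all genes, with a median difference of -0.02 beside 0.00 over all genes. Robust regression called 1, Fpgs, beside 1.64% of all genes, and array weights 0, beside 0.981% of all genes. For 28 genes the 95% interval stayed within 0.5 log2 units of 0, all but Sms and Apip.

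Mat2a, the gene that makes S-adenosylmethionine from methionine, had 4.86, 7.57 and 59.3 FPKM on restricted feed, against 4.53, 7.86 and 13.96 FPKM on standard feed. The ranges overlap but for 2 mice on restricted feed, 1 MADMR mouse at 59.3 FPKM and 1 FADMR mouse at 23.6 FPKM. Both values come from a second row with the same symbol, which was 0 in 82 libraries and reached 47.2 and 18.7 FPKM in these. The difference was 0.10 ± 0.093 (adjusted p = 0.901) with the rows summed, while on the first row alone its 95% interval ran from -0.12 to 0.12 around a difference of less than 0.01 in size (adjusted p = 0.998). Group medians of Mat2a in FPKM were 6.98 in FADMR, 6.30 in FWTMR, 6.33 in FAD, 6.52 in FWT, 7.67 in MADMR, 8.79 in MWTMR, 8.49 in MAD and 9.23 in MWT.

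Of the other genes of the cycle, Ahcy differed between feeds by -0.01 ± 0.029 and Ahcyl1 by -0.02 ± 0.035 (adjusted p = 0.972 and 0.97). Mtr was at 0.02 ± 0.061 (adjusted p = 0.976) and Mat2b's interval ran from -0.10 to 0.10. The Fpgs locus had the smallest adjusted p for feed. Its values were 5.30, 8.16 and 10.8 FPKM on restricted feed, against 5.02, 7.503 and 10.6 FPKM on standard feed, which overlap, with 32 of 42 mice on restricted feed above the median of the standard feed. The difference was 0.11 ± 0.041 (adjusted p = 0.41), and robust regression gave 0.13 with an adjusted p of 0.0305. In males it was 0.19 ± 0.080 for MADMR against MAD and 0.18 ± 0.082 for MWTMR against MWT, and in females 0.04 ± 0.080 for FADMR against FAD and 0.04 ± 0.084 for FWTMR against FWT. The Mthfd1 locus, which includes Akap5, was the other gene with an unadjusted p under 0.05, at -0.10 ± 0.044 (adjusted p = 0.615).

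Within each sex and genotype 0 of 30 were called for feed in AD females (0.0141% of all genes), control females (0.0704%), AD males (0.0141%) and control males (0%). At an unadjusted p under 0.05 there were 4 of 30 in AD females (6.25% of all genes), 0 in control females (7.07%), 5 in AD males (5.96%) and 3 in control males (6.74%). Robust regression called 0 in each, beside 0.239% of all genes in AD females, 1.22% in control females, 0.451% in AD males and 0.963% in control males. Array weights also called 0 in each, beside 0%, 0.596%, 0.16% and 1.07% of all genes in the same order. With single libraries left out the counts over all genes ran from 0 to 6 in AD females, 7 to 28 in control females, 0 to 8 in AD males and 0 to 75 in control males, with 75 reached without MWT replicate 1. In AD males the lowest p was that of Aldh1l2, with 5.41, 6.60 and 8.31 FPKM in MADMR, against 4.42, 5.40 and 7.79 FPKM in MAD, a difference of 0.24 ± 0.086 (adjusted p = 0.605). In AD females the lowest p was that of Ahcyl2, with 191, 287 and 391 FPKM in FADMR, against 216, 378 and 463 FPKM in FAD, a difference of -0.31 ± 0.13 (adjusted p = 0.701). The interaction of genotype and feed called 0 of 30 genes (0.0047% of all), with 0 at an unadjusted p under 0.05 (5.26% of all). It called 0 with robust regression (0.46% of all) and 0 with array weights (0.0141% of all).

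Females and males differed in 16 of the 30 genes, 4 higher and 12 lower in females. This is 53.3%, against 50.5% of all genes called between the sexes, and so a share near that of the background. By direction, 4 of 30 were higher, beside 27.4% of all genes, and 12 of 30 lower, beside 23% of all genes, and the median difference was -0.08, against 0.01 over all genes. All 4 that were higher, the Mri1, Gnmt, Fpgs and Mthfs loci, sit on rows joined with another gene. Of the 22 tested genes that are alone on their row, 0 were higher and 10 lower. Without the scaling factors 5 of the 30 genes were higher and 8 lower (43.3%). Over all 21297 genes 7177 were then higher and 3260 lower (49%). With every library brought to 1 total, 5 of the 30 were again higher and 8 lower (43.3%). Over all genes 7084 were then higher and 3476 lower (49.6%). Of all genes called, 68.8% were then higher without the factors and 67.1% with equal totals, against 54.3% with the factors. The labels give no batch, so that sex and any batch along with it cannot be told apart.

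In the methionine cycle, Ahcyl1 had the smallest adjusted p. Its lowest, median and highest values were 202, 236 and 297 FPKM in females, against 228, 288 and 435 FPKM in males. Nearly all females lay below the male median (41 of 42), though the ranges overlap, and the difference was -0.30 ± 0.035 (adjusted p = 3.77e-10). Group medians in FPKM were 234 in FADMR, 228 in FWTMR, 241 in FAD and 240.0 in FWT, against 283 in MADMR, 297 in MWTMR, 279 in MAD and 291 in MWT, so each female median lay below each male median. In this gene and in those that follow, single females and males overlapped in range.

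Mat2a was lower in females as well, with values on its first row of 4.53, 6.47 and 11.8 FPKM in females, against 5.03, 8.74 and 13.96 FPKM in males. The difference was -0.34 ± 0.059 on that row (adjusted p = 3.35e-06) and -0.34 ± 0.093 with both rows summed (adjusted p = 0.0018). The Mtr locus ran at 1.34, 8.53 and 10.7 FPKM in females, against 7.94, 10.5 and 14.3 FPKM in males. One FAD mouse at 1.34 FPKM stood apart from all the others, which were at 6.37 FPKM or more, and 41 of 42 females were below the male median. Its difference was -0.33 ± 0.061 (adjusted p = 8.02e-06), and its group medians in FPKM were 8.22 in FADMR, 8.39 in FWTMR, 8.69 in FAD and 8.07 in FWT, against 9.64 in MADMR, 10.96 in MWTMR, 10.8 in MAD and 10.4 in MWT.

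Ahcyl2 and Mat2b were lower by less. Ahcyl2 was at 191, 368 and 471 FPKM in females, against 234, 369 and 624 FPKM in males, with nearly the same medians, a difference of -0.22 ± 0.065 (adjusted p = 0.00363) and 21 of 42 females below the male median. Mat2b was at 104, 162 and 219 FPKM in females, against 109, 185 and 239 FPKM in males, a difference of -0.15 ± 0.049 (adjusted p = 0.00885) that did not pass with FPKM as deposited, with equal totals or with the tissue covariates. Its group medians in FPKM were 159 in FADMR, 168 in FWTMR, 165 in FAD, 157 in FWT, 179 in MADMR, 191 in MWTMR, 189 in MAD and 195 in MWT. Ahcy, the hydrolase itself, was at 4.56, 5.83 and 7.91 FPKM in females, against 4.07, 5.93 and 7.70 FPKM in males. Group medians of Ahcy in FPKM were 6.08 in FADMR, 5.97 in FWTMR, 5.84 in FAD, 5.57 in FWT, 5.47 in MADMR, 6.05 in MWTMR, 5.92 in MAD and 5.93 in MWT. Its difference of -0.03 ± 0.029 (adjusted p = 0.344) did not pass, nor did that of Mtrr, at -0.04 ± 0.12 (adjusted p = 0.811).

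In polyamine synthesis Amd1 was the one gene called. Its values were 15.5, 20.3 and 28.97 FPKM in females, against 18.9, 24.1 and 30.1 FPKM in males, with 40 of 42 females below the male median, and a difference of -0.21 ± 0.033 (adjusted p = 3.29e-07). Group medians of Amd1 in FPKM were 19.3 in FADMR, 19.4 in FWTMR, 20.7 in FAD and 20.98 in FWT, against 21.9 in MADMR, 24.9 in MWTMR, 24.1 in MAD and 23.8 in MWT. Each female median thus lay below each male median. Odc1 was at 8.93, 12.4 and 18.9 FPKM in females, against 9.16, 12.8 and 27.6 FPKM in males, a difference of -0.10 ± 0.052 (adjusted p = 0.115), with group medians in FPKM of 12.8 in FADMR, 12.6 in FWTMR, 11.3 in FAD, 12.4 in FWT, 11.1 in MADMR, 13.1 in MWTMR, 12.4 in MAD and 13.05 in MWT. Srm was at 8.99, 13.997 and 41.4 FPKM in females, against 10.2, 12.8 and 40.6 FPKM in males, a difference of 0.07 ± 0.11 (adjusted p = 0.626).

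Among the salvage genes, Enoph1 and Mtap were lower and the Mri1 locus higher in females. Enoph1, whose enzyme makes the acireductone of the route, was at 51.9, 97.8 and 132 FPKM in females, against 89.6, 110.2 and 134 FPKM in males, with 36 of 42 females below the male median and a difference of -0.17 ± 0.044 (adjusted p = 0.00105). Mtap was at 3.09, 6.42 and 8.10 FPKM in females, against 4.19, 7.21 and 9.44 FPKM in males, a difference of -0.16 ± 0.044 (adjusted p = 0.00208), and its group medians in FPKM were 6.64 in FADMR, 6.19 in FWTMR, 6.58 in FAD, 5.72 in FWT, 6.99 in MADMR, 7.39 in MWTMR, 7.04 in MAD and 7.21 in MWT. The Mri1 locus, whose gene makes the isomer that enters the later salvage steps, was at 249.9, 288 and 355 FPKM in females, against 203, 255 and 310.0 FPKM in males. Here 40 of 42 females lay above the male median, with a difference of 0.20 ± 0.025 (adjusted p = 1.23e-09). Apip was at -0.01 ± 0.13, and the 95% interval of the Adi1 locus ran from -0.07 to 0.07, with neither past the threshold.

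**Figure D3:**
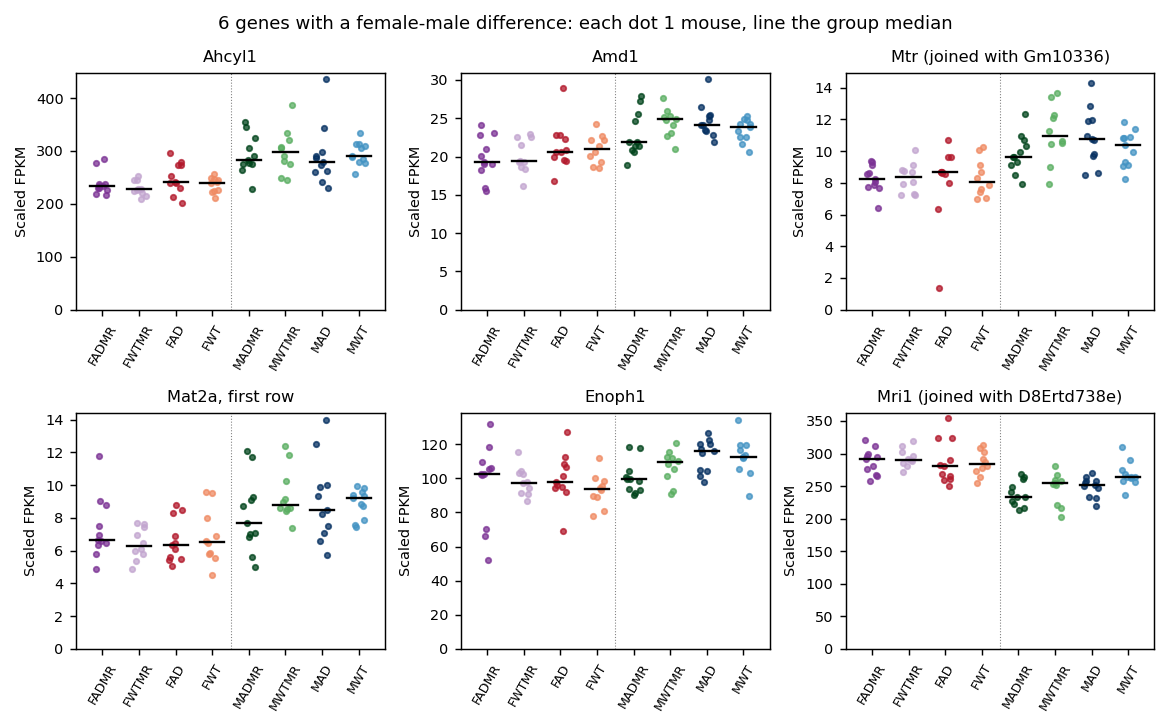
Scaled FPKM of 6 genes in each mouse, by group, females left of the dotted line and males right of it, with black lines at the group medians and axes from 0. Ahcyl1, Amd1, Mtr and the first row of Mat2a have their 4 female medians below their 4 male medians, the Mri1 locus has them above, and Enoph1 overlaps, with medians of 103 FPKM in FADMR and 99.5 FPKM in MADMR.

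Of the folate enzymes, the Mthfd1 locus and Aldh1l2 were lower and the Fpgs and Mthfs loci higher in females. The Mthfd1 locus was at 2.65, 4.88 and 6.04 FPKM in females, against 3.31, 5.56 and 7.07 FPKM in males, a difference of -0.17 ± 0.044 (adjusted p = 0.000846). The Fpgs locus was at 6.45, 8.18 and 10.6 FPKM in females, against 5.02, 7.34 and 10.8 FPKM in males, a difference of 0.15 ± 0.041 (adjusted p = 0.00156), with 36 of 42 females above the male median. Aldh1l2 was at -0.10 ± 0.044 (adjusted p = 0.0429) and the Mthfs locus at 0.06 ± 0.024 (adjusted p = 0.0393). Both sat close to the threshold: leaving out single libraries gave adjusted p values from 0.0246 to 0.0688 for Aldh1l2, losing the call in 26 of 85 cases, and from 0.0270 to 0.0677 for Mthfs, losing it in 14. Shmt2 was at 5.52, 13.4 and 15.6 FPKM in females, against 7.18, 12.4 and 17.8 FPKM in males, a difference of 0.08 ± 0.043 (adjusted p = 0.0977), and it passed with FPKM as deposited (0.13), with equal totals (0.13) and with robust regression (0.11), and without FAD replicate 10 (adjusted p = 0.00495) or MADMR replicate 3 (0.0482). The Aldh1l1 locus, known as a marker of astrocytes, was at 9.37, 12.5 and 17.97 FPKM in females, against 9.53, 12.9 and 17.04 FPKM in males, a difference of -0.04 ± 0.039 (adjusted p = 0.451). Group medians of Shmt2 in FPKM were 13.3 in FADMR, 13.2 in FWTMR, 13.6 in FAD, 14.04 in FWT, 12.02 in MADMR, 12.2 in MWTMR, 12.5 in MAD and 12.6 in MWT, and those of the Aldh1l1 locus were 11.97 in FADMR, 12.5 in FWTMR, 13.04 in FAD, 12.7 in FWT, 12.1 in MADMR, 13.2 in MWTMR, 13.2 in MAD and 12.9 in MWT.

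Gldc and Gcsh of the glycine cleavage system were lower in females and Amt was not called. Gldc was at 17.4, 40.1 and 65.9 FPKM in females, against 14.7, 49.7 and 70.7 FPKM in males, a difference of -0.20 ± 0.084 (adjusted p = 0.0411) with 35 of 42 females below the male median, and without single libraries its adjusted p ran from 0.00686 to 0.0672, losing the call in 22 of 85 cases. Gcsh was at 3.07, 3.60 and 4.26 FPKM in females, against 2.76, 3.90 and 5.27 FPKM in males, a difference of -0.08 ± 0.024 (adjusted p = 0.00285) that did not pass with FPKM as deposited or equal totals. Amt was at 9.91, 23.2 and 28.02 FPKM in females, against 13.5, 23.2 and 27.3 FPKM in males, a difference of -0.03 ± 0.058 (adjusted p = 0.706). In the choline branch the Gnmt locus was higher in females, at 102, 147 and 171 FPKM in females, against 65.8, 134 and 184 FPKM in males, a difference of 0.15 ± 0.051 (adjusted p = 0.00986). Chdh was at -0.27 ± 0.12 (adjusted p = 0.0598), which passed when any 1 of 16 libraries was left out (adjusted p from 0.0218 to 0.0499) and with robust regression.

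Of 80 tested markers of 9 cell types and regions, 23 were called between the sexes (28.8%), against 50.5% of all genes. Of 10 astrocyte markers 6 were lower in females and 0 higher, and their summed level ran from 945 to 1905 FPKM in females (median 1356), against 1074 to 2390 FPKM in males (median 1626). Of 8 neuron markers 4 were lower and 1 higher, with sums of 2188 to 4434 FPKM in females, against 2431 to 5189 FPKM in males. Of 10 hippocampal markers 2 were lower and 0 higher, with sums of 1128 to 4038 FPKM in females, against 1708 to 4178 FPKM in males. Of 7 tested meninges markers 3 were higher and 0 lower, with sums of 15.9 to 271 FPKM in females, against 22.0 to 122 FPKM in males. Of 8 microglia markers 2 were higher and 2 lower, and 0 of 8 oligodendrocyte and 0 of 11 choroid plexus markers were called. Of 9 tested markers of striatum 1 was higher and 1 lower, and of 9 of thalamus 1 was lower. Their part in the differences of the enzymes was not tested beyond a fit with the marker means of choroid plexus, meninges, striatum and thalamus as covariates, in which 14 of the 30 genes (46.7%) and 46.6% of all genes were called.

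Whether genotype acted alike in both sexes was asked with the interaction of genotype and sex. None of the 30 genes was called, beside 0.629% of all genes, and 6 of 30 (20.0%) had an unadjusted p under 0.05, against 21.6% of all genes. Array weights called 2 of 30 (6.67%), Amt and Gcsh, beside 11.3% of all genes, and robust regression called 4 of 30 (13.3%), Apip, Gcsh, Mthfd2l and Mthfs, beside 12.7% of all genes, so that the first share lay under and the second near that of all genes. The interaction is the AD minus control difference in females less that in males. Its median was 0.10, beside 0.01 over all genes, and 23 of 30 were above 0. That count by direction carries no test either, as the genes share the same mice.

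The 3 glycine cleavage genes had 3 of the 6 unadjusted p values under 0.05, and all 3 interactions were above 0, as were 23 of the 30. They were set side by side after the p values were seen, so this count carries no test. Gcsh was at 0.16 ± 0.049 (adjusted p = 0.0648). Its values were 3.16, 3.68 and 4.22 FPKM in FADMR, against 3.42, 3.54 and 4.01 FPKM in FWTMR, and 3.07, 3.67 and 4.26 FPKM in FAD, against 3.23, 3.43 and 3.83 FPKM in FWT. In males they were 2.76, 3.67 and 4.56 FPKM in MADMR, against 3.65, 3.89 and 4.85 FPKM in MWTMR, and 3.02, 3.89 and 4.27 FPKM in MAD, against 3.85, 4.07 and 5.27 FPKM in MWT. The AD medians were thus above those of controls in both pairs of females and below them in both pairs of males, with overlap in each pair. The differences were 0.03 ± 0.049 for FADMR against FWTMR, 0.07 ± 0.049 for FAD against FWT, -0.11 ± 0.049 for MADMR against MWTMR and -0.10 ± 0.048 for MAD against MWT.

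Amt was at 0.35 ± 0.12 (adjusted p = 0.0883), with group medians in FPKM of 23.1 in FADMR, 22.1 in FWTMR, 24.3 in FAD, 22.6 in FWT, 20.7 in MADMR, 24.4 in MWTMR, 22.2 in MAD and 23.5 in MWT. Gldc was at 0.41 ± 0.17 (adjusted p = 0.153), with group medians in FPKM of 40.2 in FADMR, 34.8 in FWTMR, 46.5 in FAD, 41.9 in FWT, 48.7 in MADMR, 51.8 in MWTMR, 47.1 in MAD and 53.4 in MWT. The order of AD and control medians was that of Gcsh in all 4 pairs for both genes, and the ranges overlapped in each. Gcsh passed without any of FAD replicate 5 (adjusted p = 0.0248), FWT replicate 7 (0.0486), MADMR replicate 2 (0.0430), MWTMR replicate 11 (0.0442) or MAD replicate 8 (0.0396), and with the tissue covariates (0.0449). The fit with tissue covariates called 2.29% of all genes in this interaction. Amt passed without FAD replicate 5 (0.0415). Of the marker lists, 3 of 8 microglia genes were called in this interaction, all higher, and 1 of 10 astrocyte genes, lower, with list medians of 0.40 and 0.19. Their part in the values of the glycine cleavage genes was not tested. The others of the 6 were the Mthfs locus (0.14 ± 0.049, adjusted p = 0.108), Mthfd2l (0.32 ± 0.13, adjusted p = 0.139) and the Adi1 locus (0.15 ± 0.071, adjusted p = 0.192).

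For feed and sex, 0 of 30 genes were called (0% of all), and 7 of 30 (23.3%) had an unadjusted p under 0.05, against 8.8% of all genes. Array weights called 2, Ahcyl2 and Mthfs, beside 1.72% of all genes, and robust regression called 3, those 2 and Adi1, beside 2.45% of all genes. This interaction is the restricted minus standard difference in females less that in males, and for Ahcyl2 it was -0.42 ± 0.13 (adjusted p = 0.263). Its values were 191, 287 and 391 FPKM in FADMR, against 216, 378 and 463 FPKM in FAD, and 242, 347 and 471 FPKM in FWTMR, against 320.0, 379 and 428 FPKM in FWT. In males they were 312, 411 and 593 FPKM in MADMR, against 234, 369 and 624 FPKM in MAD, and 309, 448 and 569 FPKM in MWTMR, against 288, 355 and 570.4 FPKM in MWT. The median on restricted feed was lower in both pairs of females and higher in both pairs of males, and all 4 pairs overlap. The Mthfs locus had the smallest adjusted p, at 0.19 ± 0.049 (adjusted p = 0.194), with group medians in FPKM of 1.15 in FADMR, 0.933 in FWTMR, 1.0003 in FAD, 0.911 in FWT, 0.904 in MADMR, 0.915 in MWTMR, 0.965 in MAD and 1.06 in MWT.

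Several genes split into bands rather than spreading evenly. Sms, on the X chromosome, was at 6.74 to 15.2 FPKM in 12 mice and at 48.9 to 126 FPKM in the other 73. The low mice numbered 3 in FADMR, 1 in FWTMR, 1 in FAD, 0 in FWT, 2 in MADMR, 2 in MWTMR, 2 in MAD and 1 in MWT, so 8 of 44 AD mice, against 4 of 41 control mice, and 8 of 42 on restricted feed, against 4 of 43 on standard feed. Its difference was -0.34 ± 0.23 for genotype (adjusted p = 0.547), -0.34 ± 0.23 for feed (adjusted p = 0.812) and -0.12 ± 0.23 for sex (adjusted p = 0.677). With robust regression the sex difference was -0.23 with an adjusted p of 7.55e-05. Group medians of Sms in FPKM were 67.1 in FADMR, 75.5 in FWTMR, 82.9 in FAD, 79.1 in FWT, 82.4 in MADMR, 94.7 in MWTMR, 90.3 in MAD and 94.8 in MWT. Of the 12 mice low for Sms, 1 was also among the 21 low for Mtrr.

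Apip, a salvage enzyme also known as an inhibitor of apoptosis, was at 6.45 to 8.28 FPKM in 3 mice, 1 in FAD and 2 in MAD, and at 48.6 to 109 FPKM in the other 82. Its symbol is on 2 rows, and in the 3 low mice, all AD mice, the main row was 0. The second row was 0 in 6 mice, all of them controls. The main row differed by -0.43 ± 0.24 for genotype (adjusted p = 0.434), the second row by 0.49 ± 0.17 (adjusted p = 0.152) and their sum by -0.21 ± 0.13 (adjusted p = 0.501), so the rows had opposite signs. Srm too is on 2 rows, and the first was 0 in 36 libraries and reached 30.6 FPKM in others. The second row of Srm was even across mice, at 8.99, 11.7 and 14.9 FPKM, with differences of 0.02 ± 0.030 for genotype, 0.01 ± 0.030 for feed and 0.02 ± 0.030 for sex, none past the threshold. Group medians of the summed Srm in FPKM were 13.8 in FADMR, 13.7 in FWTMR, 15.9 in FAD, 13.3 in FWT, 12.6 in MADMR, 12.8 in MWTMR, 12.8 in MAD and 13.8 in MWT, and the positions of the rows are not given in the table.

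**Figure D4:**
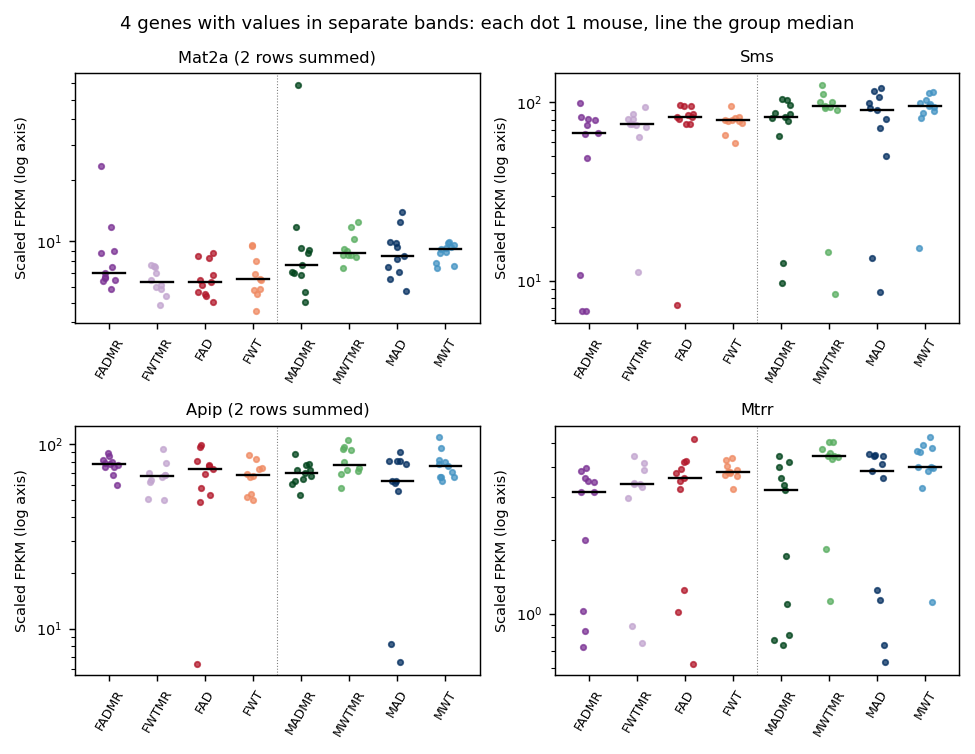
Scaled FPKM of Mat2a, Sms, Apip and Mtrr in each mouse, by group, on a log axis, with black lines at the group medians and females left of the dotted line. Sms has 12 mice at 6.74 to 15.2 FPKM, Mtrr 21 mice at 0.624 to 2.01 FPKM, Apip 3 AD mice at 6.45 to 8.28 FPKM and Mat2a 2 mice, at 59.3 and 23.6 FPKM, apart from the rest.

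Among mice of the same group, the genes correlated about as often as genes at large, with more of the correlations positive. After each group's mean was taken out, 97 of 435 pairs of genes passed a permutation test at an adjusted p under 0.05, 92 of them with a positive correlation. Of all pairs 75.4% were positive with a median r of 0.131, against 49.2% and -0.004 over the 226770456 pairs of all genes tested. The weakest pair that passed had an r of 0.258 in size, which 28.97% of the pairs reached, against 30.4% of all pairs. At the high end, 19 pairs (4.37%) reached r = 0.5, against 4.86% of all pairs. All pairs share libraries and scaling factors.

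Mat2b and Amd1 had the highest correlation (r = 0.696, rho = 0.692, n = 85). The permutation p of 1e-05 for either measure is the smallest that 100000 draws can give, with adjusted permutation p = 0.000189 for r and 0.000167 for rho over 435 pairs. The r was 0.753 in females and 0.630 in males, and 0.693 without the 2 mice farthest from the median of Mat2b. Amd1 also correlated with Ahcy (r = 0.626, rho = 0.512; adjusted permutation p = 0.000189 for r and 0.000167 for rho) and with Ahcyl1 (r = 0.599, rho = 0.600; adjusted permutation p = 0.000189 for r and 0.000167 for rho). Without the 2 farthest mice these r values were 0.556 and 0.592. Ahcy and Ahcyl1 themselves gave r = 0.468, rho = 0.402. The GC box is in the windows of all 4 of these genes, though that of Mat2b lies inside the gene as listed and includes 92 exon bases. It is also in those of 24 of the 32 genes with a window.

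Within the glycine cleavage system, Gldc and Gcsh gave r = 0.335, rho = 0.369 (adjusted permutation p = 0.0372 for r and 0.00399 for rho), which was 0.284 without the 2 farthest mice, Amt and Gldc r = 0.0585, rho = 0.0632 and Amt and Gcsh r = -0.239, rho = -0.272. The polyamine decarboxylases Odc1 and Amd1 gave r = 0.539, rho = 0.563 (adjusted permutation p = 0.000189 for r and 0.000167 for rho), with 0.733 in females and 0.356 in males. The most negative pair was Aldh1l2 and the Mri1 locus (r = -0.515, rho = -0.510; adjusted permutation p = 0.000189 for r and 0.000167 for rho), at -0.398 in females and -0.608 in males and -0.468 without the 2 farthest mice.

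Within groups the genes correlated with cell type markers about as often as genes at large. Of 270 relations between a gene and the mean of a marker list, 30 passed at an adjusted permutation p under 0.05. The weakest of these had an r of 0.301 in size, which 12.6% of the 270 reached, against 14.6% of the 191673 relations of all genes tested. Amd1 varied with the hippocampal markers (r = 0.621, rho = 0.619; adjusted permutation p = 0.0009 for r and 0.00054 for rho), at 0.678 in females and 0.510 in males and 0.603 without the 2 farthest mice. Mat2b varied with the neuron markers (r = 0.531, rho = 0.567; adjusted permutation p = 0.0009 for r and 0.00054 for rho) and with the hippocampal ones (r = 0.487, rho = 0.545; adjusted permutation p = 0.0009 for r and 0.00054 for rho). Chdh varied with the oligodendrocyte markers (r = 0.473, rho = 0.499; adjusted permutation p = 0.0009 for r and 0.00054 for rho), and Ahcyl1 with those of astrocytes (r = 0.463, rho = 0.502; adjusted permutation p = 0.0018 for r and 0.00054 for rho). Ahcyl1 also varied with those of microglia (r = 0.426, rho = 0.471; adjusted permutation p = 0.0027 for r and 0.0009 for rho). Without the 2 farthest mice its r was 0.450 with astrocyte markers and 0.504 with microglia markers. Gldc varied with those of microglia (r = 0.427, rho = 0.431; adjusted permutation p = 0.00169 for r and 0.00162 for rho). With the astrocyte markers Gldc gave r = 0.262, rho = 0.358 (adjusted permutation p = 0.15 for r and 0.0164 for rho). The part of cell composition in the correlations between genes was not tested.

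**Figure D5:**
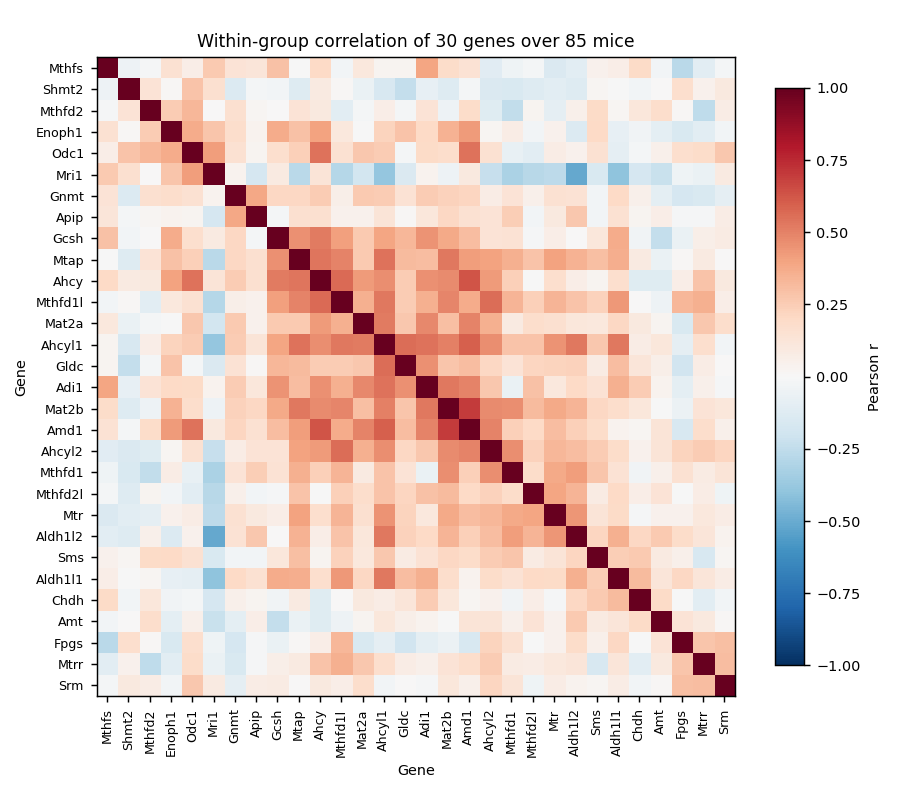
Pearson r between each pair of the 30 tested genes over 85 mice after removal of the group means, with genes in clustered order and the colour scale from -1 to 1. Red squares are densest from Mtap to Ahcyl2 on the axes, with Mat2b and Amd1 at 0.696, and the row of Mri1 holds the darkest blue, -0.515 with Aldh1l2.

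Of 57 further genes of these pathways, such as transporters, cofactor enzymes and polyamine regulators, all were in the table and 47 were tested. In the genotype average 0 were called (smallest adjusted p 0.215) and in the feed average 0 (smallest 0.567), and 0 in every other comparison but that of the sexes. Between the sexes 4 were higher and 14 lower in females, which is 38.3%, under the 50.5% of all genes, with a median difference of -0.06, against 0.01 over all genes. The 4 with the smallest p were Pcyt2, of phosphatidylethanolamine synthesis, with means of 135 FPKM in females and 116 FPKM in males (0.22 ± 0.035, adjusted p = 4.41e-07), Aldh7a1, which oxidises betaine aldehyde, with 20.1 FPKM in females and 23.4 FPKM in males (-0.21 ± 0.040, adjusted p = 1.22e-05), Slc46a1, a folate transporter, with 4.22 FPKM in females and 4.96 FPKM in males (-0.19 ± 0.036, adjusted p = 1.58e-05), and the locus of the choline kinase Chkb, with 12.9 FPKM in females and 11.5 FPKM in males (0.15 ± 0.030, adjusted p = 2.9e-05).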

How the data were processed

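Hippocampal RNA from 85 mice in 8 groups, 1 library each, was extracted with phenol and chloroform and built into libraries by a BGI-500 protocol, per the labels. The authors deposited 1 table of FPKM values (fragment numbers adjusted for transcript length and library total). Trimmomatic 0.38, StringTie 1.3.4d and HISAT2, its version not given, were used with the build GRCm38.p6, per the submitters' processing notes. The table holds 56090 rows, of which 14100 have no symbol and 1713 join several genes. Rows with the same symbol were summed, giving 53891 genes and loci. Library totals were 939248 to 1066927 FPKM. No counts were given, so depth, counting intervals and floors cannot be stated.

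Median-of-ratios factors (0.876 to 1.10) scaled the libraries. The 21297 genes that reached 1 FPKM in 10 or more libraries entered limma 3.58.1 in R 4.3.3 on log2(FPKM + 1), with 8 group means, a mean-variance trend, robust prior and 77 residual degrees of freedom. Averages over factors, pairs of groups and interactions were 14 contrasts of that fit, called at a Benjamini-Hochberg adjusted p under 0.05. Correlations used group-centred log2 values and 100000 permutations. The labels say nothing of how the animals were related, so p-values measure the spread between these mice.

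The members and lists were chosen with earlier results of these data known. Genes named by group were the members called in any comparison and Mat2a, Ahcy, Mtr, Shmt1, Shmt2, Aldh1l1, Gldc, Amd1, Odc1, Srm, Sms and Mtap. Excepted are Enoph1 and the Mri1, Fpgs, Mthfd1 and Gnmt loci, which were called but are not given for every group. Others were given for small p values, and bands after their values were seen. Alternatives were array weights, tissue covariates, a replicate block, a fit without trend, unscaled FPKM, equal library totals, a filter at 5 FPKM or none, a pseudocount of 0.1, only the groups compared, only members alone on their row, and each library left out in turn. Rows kept apart and robust regression were added after seeing the data.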

Additional observations from a re-analysis of the deposited data

Results flagged for a closer look

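In 108 sets of values, 1 gene in 1 group of 10 mice each, 12 held a mouse far from the others of its group by Dixon's test, and chance flags about 1 in 20 groups. The groups of 11 mice were not tested.

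On the low side were Mthfd1 in FWTMR replicate 1 at 2.65 FPKM (next lowest 3.85 FPKM), Shmt1 in FWT replicate 3 at 0.204 FPKM (0.348), Shmt2 in FWT replicate 11 at 9.85 FPKM (12.6) and in MWTMR replicate 8 at 7.18 FPKM (11.5), and Adi1 in MWTMR replicate 11 at 11.6 FPKM (14.3). Gldc in FWTMR replicate 11 was at 17.4 FPKM, with the next lowest at 29.7 FPKM. Sms in FWTMR replicate 1 was at 11.2 FPKM, with the next lowest at 64.2 FPKM, and this mouse belongs to the low band of Sms.

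On the high side were Mthfs in FWTMR replicate 2 at 1.43 FPKM (next highest 1.08 FPKM), Fpgs in FWT replicate 5 at 10.6 FPKM (8.75), Gcsh in MWTMR replicate 4 at 4.85 FPKM (4.23), Nnmt in the same mouse at 1.69 FPKM (0.753) and Pemt in FWTMR replicate 6 at 0.317 FPKM (0.214). FWTMR replicate 1 and MWTMR replicate 4 were each far from their group in 2 genes.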

How the results depend on the processing

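Of the 14 comparisons, 7 had 0 of the 30 genes called under each of 12 or 13 alternatives and with each library left out: genotype in males on either feed, feed in each sex and genotype, and the interaction of genotype and feed. The highest share of all genes that an alternative called in these 7 was 3.29%, with array weights in males on restricted feed. Array weights called 1 gene for genotype on average, 1 in females on standard feed, 2 in the interaction of genotype and sex and 2 in that of feed and sex. Robust regression called 1 gene for genotype on average, 1 for feed on average, 2 for genotype in females on restricted feed, 4 in the interaction of genotype and sex and 3 in that of feed and sex. Tissue covariates called 1 gene in females on restricted feed (0.991% of all genes). They called 1 in the interaction of genotype and sex (2.29% of all genes). With only the genes alone on their row 10 of 22 differed between the sexes (45.5%), beside 50.5% of all genes. Leaving out 1 library gave 0 to 1 for genotype on average and in females on restricted feed, 0 to 2 in the interaction of genotype and sex, where the count over all genes ran from 0 without FWT replicate 2 to 1528 without FAD replicate 5, and 13 to 17 for sex. Over all 21297 genes the counts were 317 to 491 for genotype on average, 189 to 420 in females on restricted feed and 10292 to 11157 for sex. The count over all genes for feed on average ran from 21 to 66, the highest without MWT replicate 1. The cause of these changes was not tested. No called gene changed sign. Over the alternatives, the adjusted p of Aldh1l2 for genotype ran from 0.0209 to 0.393, that of Mtrr from 0.0240 to 0.289, that of Fpgs for feed from 0.0305 to 0.662, that of Gcsh in the interaction of genotype and sex from 0.00999 to 0.114 and that of Amt from 0.0271 to 0.147. For Adi1 in females on restricted feed it ran from 0.0321 to 0.191, for Mthfs there from 0.0484 to 0.272, for Mthfd2 in females on standard feed from 0.0433 to 0.548, and for Ahcyl2 in the interaction of feed and sex from 0.0197 to 0.418. Between the sexes it ran from 1.7e-05 to 0.182 for Shmt2 and from 7.55e-05 to 0.961 for Sms. Of the 16 genes called for sex, 11 kept the call under every alternative that held them and with every library left out. Aldh1l2 lost it under 6 alternatives, Gldc under 5, Mat2b under 3, Gcsh and Mthfs under 2 each.

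Replicate numbers gave no sign of pairing the mice: the median correlation of same-numbered mice lay between -0.0623 and 0.0456 over the 8 pairs of groups. With the replicate block 14 genes (46.7%) were called for sex, beside 48.2% of all genes. On average 0 were called for genotype (1.42% of all genes) and 0 for feed (0.0563%). That block took the count over all genes from 134 to 0 in the interaction of genotype and sex. For feed on average it went from 30 to 12. Depth is unknown, so which low genes could not have shown a difference cannot be stated.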

Other observations

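Beyond the 4 genes named above, 14 more of the 47 tested pathway genes were called between the sexes. Higher in females were Dohh, of hypusine synthesis, and Slc1a5, a transporter of neutral amino acids. Lower in females were 12. They include the cobalamin genes Lmbrd1, Mmachc and Mmadhc, the polyamine regulators Oaz2 and Azin1, the lipoamide dehydrogenase Dld, the serine phosphatase Psph, the folate hydrolase Ggh and the amino acid transporter Slc38a2. The other 3 were Bmt2, Got1 and Il4i1.

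Slc3a2, the heavy chain of amino acid transporters, had the smallest adjusted p of these genes in the interaction of genotype and sex, 0.59 ± 0.16 (adjusted p = 0.0516). It was chosen after its values were seen and did not pass the threshold.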
